A study of Mus musculus with 6 samples.

Results

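The pluripotency factors described here are 10 genes of the network that keeps embryonic stem cells undifferentiated, examined in spermatogonia sorted from adult mouse testis. They were chosen by name (*Pou5f1*, *Sox2*, *Nanog*, *Klf4*, *Klf2*, *Utf1*, *Zfp42*, *Esrrb*, *Dppa4* and *Tcl1*), and all 10 were found among the 53657 gene names counted. RNA was sequenced from 3 WT and 3 MUT samples. All were adult mice that carried a tamoxifen-inducible Cre recombinase driven by the *Gfra1* promoter and a Cre-dependent tdTomato reporter (Gfra1-creERT2; tdTom fl/-), and all were collected 3 months after tamoxifen. MUT mice in addition carried the flox-and-replace allele of *Hras*, which after recombination leaves the cells heterozygous for the G12V substitution, a constitutively active form of this small GTPase, under the endogenous *Hras* promoter. The cells were sorted as MCAM-bright and tdTomato+, a gate enriched for undifferentiated spermatogonia (A_undiff). Since recombination happens cell by cell, a MUT library may also hold labelled cells without the mutation. From variant calling in the MUT samples, the paper put the mutation in most of the sorted cells.

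In embryonic stem cells, *Pou5f1* (the protein OCT4) and *Sox2* act as partners that bind neighbouring DNA sites, and together with *Nanog* they sustain the undifferentiated state. *Klf2*, *Klf4* and *Esrrb* belong to the circuit of naive pluripotency, and *Utf1*, *Zfp42* (REX1), *Dppa4* and *Tcl1* are genes of pluripotent cells that lie downstream of or beside this core. The male germ line keeps part of the programme. OCT4 and UTF1 are known in undifferentiated spermatogonia of the postnatal testis, whereas NANOG is switched off in male germ cells before birth. The question put to these data was at which level each factor is transcribed in adult A_undiff and whether this level differs between WT and MUT.

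Depth differed little, with between 22729292 and 23550433 fragments counted per library, so that 3 counts, taken as the floor of detection, corresponded to 0.127 to 0.132 CPM (counts scaled to library size). In what follows, values listed for a group stand in the order of replicates 1, 2 and 3. *Hras*, the targeted gene, had WT levels of 60.7 ± 4.21 CPM and MUT levels of 66.7 ± 4.97 CPM (SD, n = 3 each), with a log2 fold change of 0.14 (adjusted p = 0.998, edgeR), and counts per gene do not separate its alleles. All 12 genes listed for undifferentiated spermatogonia were detected in every library. Their summed level was between 1697 and 2223 CPM in WT and between 1859 and 2181 CPM in MUT. This sum includes *Ddx4*, a germ cell gene not confined to undifferentiated spermatogonia, at 498 CPM in WT and 510 CPM in MUT. Genes of other cells were present too. The sum over 6 spermatid genes was 869 to 1476 CPM in WT and 601 to 1147 CPM in MUT, and the sum over 6 macrophage genes was 635 to 1079 CPM in WT and 567 to 708 CPM in MUT, with no marker of either list at 0 in any library. WT replicate 3 had the highest sum of the meiotic, spermatid, Sertoli cell and macrophage lists and the lowest of the undifferentiated list. MUT replicate 3 stood apart in 6 Leydig cell genes, which summed to 67.3 CPM there and to between 12.9 and 21.1 CPM in the other libraries.

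The 10 factors were spread over more than 2 orders of magnitude. For comparison between genes, counts were divided by exon length and scaled to a common total (TPM), a scale on which the median of the 19656 genes tested was 14.6 TPM. The length used is that of all annotated exons together, so a gene with many isoforms gets a lower TPM than its main transcript would. *Esrrb* has 6047 such bases and a longest GENCODE vM21 transcript of 4300, and *Pou5f1* has 2248 and 1362. For *Zfp42* they are 1881 and 1837, so its place beside *Pou5f1* depends on the length used. Averaged over the 6 libraries, *Klf4* was highest at 146 TPM, followed by *Klf2* (103 TPM), *Tcl1* (88.9 TPM) and *Dppa4* (82.7 TPM). Neighbours among these 4 genes overlapped in their ranges over the libraries. A second tier began 3.04 times below *Dppa4*. It held *Zfp42* (27.2 TPM), *Pou5f1* (27.1 TPM) and *Utf1* (20.8 TPM), again with overlapping ranges. *Esrrb* (7.50 TPM), *Sox2* (1.77 TPM) and *Nanog* (0.261 TPM) followed, each below the range of the gene before it. As a yardstick, *Zbtb16*, the transcription factor PLZF that maintains spermatogonial stem cells, was at 289 TPM. On this scale the genes of the undifferentiated list had a median of 102 TPM, and those of the spermatid list a higher one of 1240 TPM. Of the 10 factors, 7 were above the median of the genes tested and 3 were below it.

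**Figure D1:**
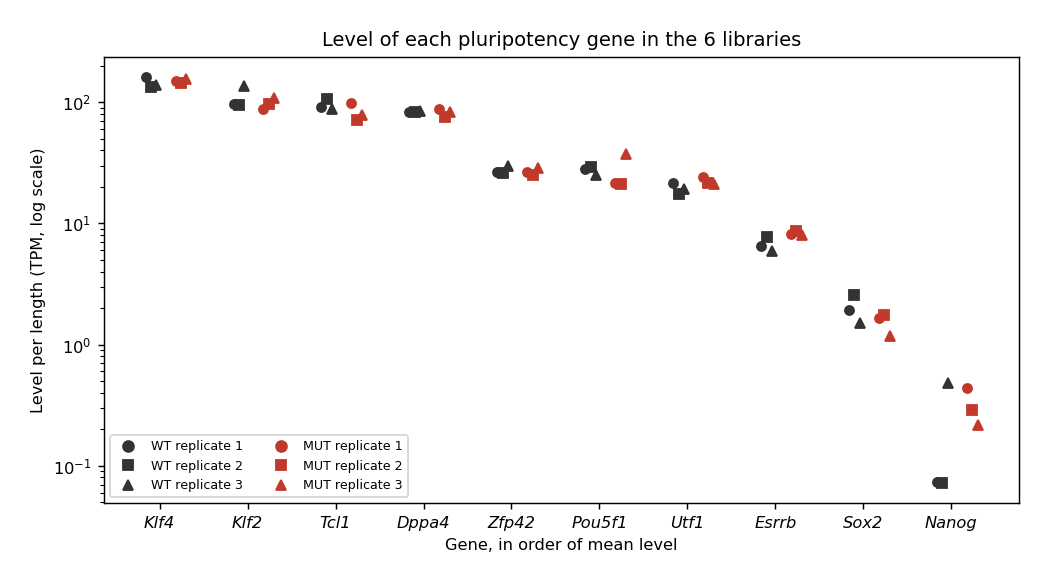
Level per exon length (TPM, log axis) of the 10 genes, ordered by mean level, in each of the 6 libraries (black WT, red MUT, with marker shapes for replicates 1, 2 and 3). *Klf4* sits highest at 133 to 160 TPM and *Nanog* lowest at 0.072 to 0.480 TPM, and for every gene except *Esrrb* points of the 2 groups overlap.

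The sequences just upstream of 4 members are shown because these genes span the range of levels just described and differ in base composition and in the sites that pluripotency factors are known to read. Each run gives the 250 bases before the RefSeq transcription start on GRCm38.p6, in the direction of transcription. The capitals mark matches on either strand to the octamer of OCT4 (ATGCAAAT or its shorter core TTTGCAT), to the core of the Sox site (ACAATG, or CATTGTT for the longer form) and to a KLF site (CCACCC). The core forms overlap the longer ones and were chosen after the sequences had been seen. *Klf4* lies on the minus strand (chr4:55532476-55532725), *Zfp42* on the minus strand (chr8:43307010-43307259), *Pou5f1* on the plus strand (chr17:35505782-35506031) and *Nanog* on the plus strand (chr6:122707239-122707488).
Klf4: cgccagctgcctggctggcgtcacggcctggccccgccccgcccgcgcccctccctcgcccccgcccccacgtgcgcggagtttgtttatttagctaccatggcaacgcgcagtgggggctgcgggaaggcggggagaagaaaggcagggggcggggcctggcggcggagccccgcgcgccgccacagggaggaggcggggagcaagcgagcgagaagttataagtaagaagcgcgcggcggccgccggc
Zfp42: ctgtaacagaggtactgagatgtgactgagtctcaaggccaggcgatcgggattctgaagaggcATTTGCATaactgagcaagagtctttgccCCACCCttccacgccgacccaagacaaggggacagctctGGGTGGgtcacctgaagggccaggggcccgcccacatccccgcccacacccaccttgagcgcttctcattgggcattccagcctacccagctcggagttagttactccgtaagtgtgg
Pou5f1: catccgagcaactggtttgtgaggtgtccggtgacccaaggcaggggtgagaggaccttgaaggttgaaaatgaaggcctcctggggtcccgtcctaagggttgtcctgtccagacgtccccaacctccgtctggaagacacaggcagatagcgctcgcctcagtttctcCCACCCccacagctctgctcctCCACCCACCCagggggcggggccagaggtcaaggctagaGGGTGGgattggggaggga
Nanog: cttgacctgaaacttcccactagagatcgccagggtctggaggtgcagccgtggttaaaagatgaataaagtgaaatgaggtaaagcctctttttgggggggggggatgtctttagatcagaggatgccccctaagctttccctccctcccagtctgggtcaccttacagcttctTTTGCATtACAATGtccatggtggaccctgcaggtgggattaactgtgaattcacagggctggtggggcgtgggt

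RefSeq windows of 300 bases, 250 before and 50 after the start, were found for 9 of the 10 members, 12 windows in all, and for *Dppa4* none was used. The median window of all 32851 held 7 CpG dinucleotides. *Klf4* had 40 in its window, *Klf2* 32 and *Sox2* 27, while *Nanog* had 4. The full octamer was found in 1 member, *Zfp42*, beginning at position -186 relative to the start, and in 1.74% of all windows. The octamer core followed within 2 bases by the Sox core on the same strand was found in both *Nanog* windows, which overlap and hold the same site. It was found in 3 of all 32851 windows (0.00913%) and in 0.0074% of 27025 genes. As the cores were chosen after the sequences had been seen, these shares are a description and no test. In the run printed above the core of the octamer begins at position -75 relative to the *Nanog* start. The order of CpG counts did not follow that of the levels throughout, since *Sox2* with 27 was at 1.77 TPM and *Tcl1* with 11 at 88.9 TPM. The *Sox2* window ends at 34650044 on chromosome 3, before the counted gene begins at 34650405. Its CpG count thus belongs to a RefSeq start outside the counted exons. The first *Pou5f1* window held 4 KLF sites, and 31.5% of all windows held at least 1. Such sites also occurred in windows of *Nanog*, *Klf2*, *Zfp42*, *Esrrb* and *Tcl1*, but not in those of *Sox2*, *Klf4* and *Utf1*. Matching letters do not show that a factor is bound in these cells.

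Of the core trio of embryonic pluripotency, *Pou5f1* was well detected, *Sox2* was low but above the floor in every library, and *Nanog* was near the limit of these libraries. *Nanog*, a homeodomain factor on chromosome 6 from 122707489 to 122714633 (GRCm38), held 1, 1 and 7 counts in the WT libraries against 6, 4 and 3 in the MUT libraries. Only 3 of the 6 libraries exceeded the floor of 3 counts, and the gene did not pass the expression filter. Pooled over libraries it had 9 counts in WT and 13 in MUT, a ratio of 1.43 with a 95% exact interval for counting error of 0.567 to 3.8, which leaves the direction undetermined at this depth. WT replicate 3 held 7 of the 9 WT counts, and without it the ratio was 4.34 with an interval of 0.983 to 39.6. *Sox2*, the HMG box partner of OCT4, lies on chromosome 3 from 34650405 to 34652461, inside the span of the long non-coding gene *Sox2ot* but without shared exon bases. It had 24, 33 and 20 counts in WT and 21, 22 and 15 in MUT. The groups overlapped, at 1.10 ± 0.286 CPM in WT and 0.838 ± 0.171 CPM in MUT (SD, n = 3 each). MUT was the lower of each same-numbered pair, as for 13% of all genes tested, and the log2 fold change was -0.39 (95% confidence interval -1.07 to 0.29, adjusted p = 0.998 by edgeR with the Benjamini-Hochberg method). Of the 9 members tested it had the widest interval.

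*Pou5f1* (chromosome 17, 35506018 to 35510772) gave 382, 407 and 368 counts in WT against 297, 290 and 524 in MUT. On the CPM scale these were 16.7, 17.4 and 15.6 in WT and 12.98, 12.6 and 22.4 in MUT. The WT libraries lay close together, whereas the MUT group held both the 2 lowest libraries and the highest one. The log2 fold change was -0.05 (95% confidence interval -0.54 to 0.44, adjusted p = 0.998 from edgeR). Without MUT replicate 3, the library with the high Leydig cell sum, the remaining MUT libraries lay below all WT libraries, at 12.8 CPM against 16.5 CPM. They were the 2 lowest libraries of all, so this separation follows from which library was left out. The log2 fold change was then -0.37, with an unadjusted p of 0.0160 and an adjusted p of 0.392 from edgeR. In that fit 1736 genes of the whole table had an unadjusted p under 0.05, against 547 with all libraries. MUT replicate 3 was the highest library for 14.6% of all genes tested. Within MUT the spermatid sum also set this library apart, at 601, 629 and 1147 CPM, and the sum of 5 peritubular myoid genes was highest there as well, at 12.8 CPM against 7.91 to 9.68 CPM in the other libraries. In WT, the spermatid sum was 1165, 869 and 1476 CPM, highest in replicate 3, where *Pou5f1* was lowest of the WT libraries. Whether any of these cells has a part in the *Pou5f1* level of MUT replicate 3 was not tested. Of the *Pou5f1* exon bases 317 (14.1%) are shared with *RP23-38P5.15*, a gene on the opposite strand, and since the counting ignored strand and dropped ambiguous fragments, fragments there are not counted for it. *RP23-38P5.15* itself had at most 1 count in a library.

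*Utf1*, *Zfp42* and *Dppa4*, which lie downstream of or beside the core, varied less between libraries than *Pou5f1*, with coefficients of variation of 5.54% to 11.2% beside 21.99%. *Utf1*, a chromatin-associated factor encoded on chromosome 7 from 139943789 to 139945112, was at 6.95, 5.64 and 6.47 CPM in WT against 7.96, 7.11 and 6.93 CPM in MUT. The groups overlapped in 1 pair of libraries, WT replicate 1 and MUT replicate 3. MUT was higher in 3 of 3 same-numbered pairs, as were 14.1% of all genes tested, with a log2 fold change of 0.21 (95% confidence interval -0.13 to 0.55, adjusted p = 0.998 from edgeR). *Zfp42*, a zinc finger gene on chromosome 8 that serves as a marker of naive pluripotency, ranged from 12.7 CPM in MUT replicate 2 to 15.4 CPM in WT replicate 3. The meiotic and spermatid sums were also highest in WT replicate 3, at 807 and 1476 CPM. Their lowest libraries were others than that of *Zfp42*, namely WT replicate 1 and MUT replicate 1. The part of such cells in the *Zfp42* level was not tested. *Dppa4*, which encodes a chromatin-associated protein of pluripotent and germ cells (chromosome 16, 48283735 to 48294292), varied least of all members. It was at 34.4 ± 1.29 CPM in WT and 33.5 ± 2.58 CPM in MUT (SD, n = 3 each). Their log2 fold changes were -0.046 for *Zfp42* and -0.037 for *Dppa4*, both smaller than their standard errors of 0.119 and 0.085.

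*Tcl1*, a co-activator of the kinase AKT, lies on chromosome 12 from 105216750 to 105222793 on the minus strand. It was at 44.5, 51.5 and 44.4 CPM in WT against 49.1, 35.2 and 38.4 CPM in MUT. MUT replicate 1 fell within the WT range and the other MUT libraries below it, with a log2 fold change of -0.20 (95% confidence interval -0.49 to 0.10, adjusted p = 0.998 from edgeR). Without MUT replicate 1 the difference was -0.35 with an unadjusted p of 0.0108 and an adjusted p of 0.9999 in edgeR. In that fit 407 genes of the whole table had an unadjusted p under 0.05, against 547 with all libraries. Its neighbours of the *Tcl1b* cluster were close to silent, and the highest, *Tcl1b2*, reached 1.46 TPM.

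Among the factors of the naive circuit, *Esrrb* was the 1 member whose groups did not overlap. *Esrrb*, an orphan nuclear receptor encoded on chromosome 12 from 86361117 to 86521628, gave 237, 288 and 234 counts in WT against 307, 321 and 300 in MUT. All MUT libraries were above all WT libraries, at 13.4 ± 0.549 CPM against 10.9 ± 1.28 CPM (SD, n = 3 each). The log2 fold change was 0.30 (standard error 0.127, 95% confidence interval 0.012 to 0.59), an increase of 1.23-fold. An exact two-sided permutation test gave p = 0.1, the smallest that 3 against 3 samples allow. In edgeR the unadjusted p was 0.0430 and the adjusted p 0.998, so *Esrrb* did not pass the test. DESeq2 gave an unadjusted p of 0.0565, and with the replicate number as a block edgeR gave 0.0283, or 0.650 after adjustment, and DESeq2 gave an unadjusted p of 0.0932. Leaving out each library in turn kept the difference between 0.24 and 0.39 on the log2 scale. Of all genes tested 4.69% had every MUT library above every WT library and 1.34% were higher in MUT at an unadjusted p under 0.05, and the count among the 9 tested members was 1 by either measure. The summed level of 6 genes of differentiating spermatogonia moved the same way, at 628, 701 and 677 CPM in WT against 744, 878 and 721 CPM in MUT, with MUT replicate 2 the highest library of both the sum and *Esrrb*. The lowest library was WT replicate 1 for the sum and WT replicate 3 for *Esrrb*. The part of differentiating cells in the *Esrrb* difference was not tested.

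**Figure D2:**
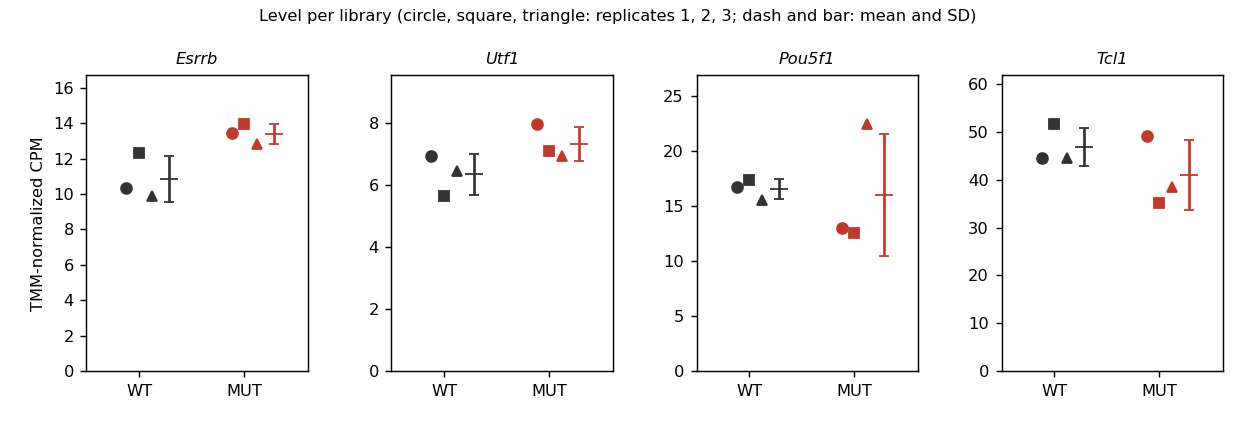
TMM-normalized CPM of *Esrrb*, *Utf1*, *Pou5f1* and *Tcl1* in each library (circle, square and triangle for replicates 1, 2 and 3), with the mean and SD of the 3 libraries of a group as dash and bar. *Esrrb* is at 9.89 to 12.3 CPM in WT and 12.8 to 13.9 CPM in MUT, while MUT replicate 3 stands above the other libraries for *Pou5f1* at 22.4 CPM.

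The Krüppel-like factors *Klf4* and *Klf2*, zinc finger proteins that also act in many somatic cells, were the most abundant members. *Klf4* (chromosome 4, 55527143 to 55532466, minus strand) was at 129, 107 and 116 CPM in WT against 122, 118 and 125 CPM in MUT. All MUT libraries lay within the WT range, and the log2 fold change of 0.05 had a 95% confidence interval of -0.13 to 0.23, the narrowest of the members (adjusted p = 0.998 from edgeR). *Klf2* (chromosome 8, 72319033 to 72321656) was at 47.5, 46.8 and 68.6 CPM in WT and at 43.4, 47.6 and 53.0 CPM in MUT. WT replicate 3 was the highest of the 6 libraries and MUT replicate 3 the next, and the log2 fold change was -0.18 (95% confidence interval -0.53 to 0.17, adjusted p = 0.998 from edgeR). Without WT replicate 3 it was 0.026, so the direction rests on that library, which was the highest for 26.7% of all genes tested.

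*Klf2* is also transcribed in endothelial cells and macrophages, so its level was set beside the markers of these cells. The 6 macrophage genes (*Adgre1*, *Csf1r*, *Cd68*, *Ptprc*, *Lyz2* and *C1qa*) summed to 735, 635 and 1079 CPM in WT against 567, 681 and 708 CPM in MUT. All 6 genes were highest in WT replicate 3, as *Klf2* was, and the sum was lowest in MUT replicate 1, as *Klf2* was. The spermatid sum had the same highest and lowest library, at 1476 and 601 CPM. The 5 endothelial genes did not follow this order, with 44.1 CPM in WT replicate 3 and between 43.8 and 58.3 CPM in the other libraries. *Klf4* had its highest level in WT replicate 1 and its lowest in WT replicate 2. The gate on tdTomato should leave macrophages out, since the *Gfra1* promoter that drives Cre is held to be silent in somatic cells of the testis, yet their defining genes were detected in every library. The part of macrophage or spermatid RNA in the *Klf2* counts was not tested. In bulk samples such as these, fewer cells of a type and less RNA per cell cannot be told apart.

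**Figure D3:**
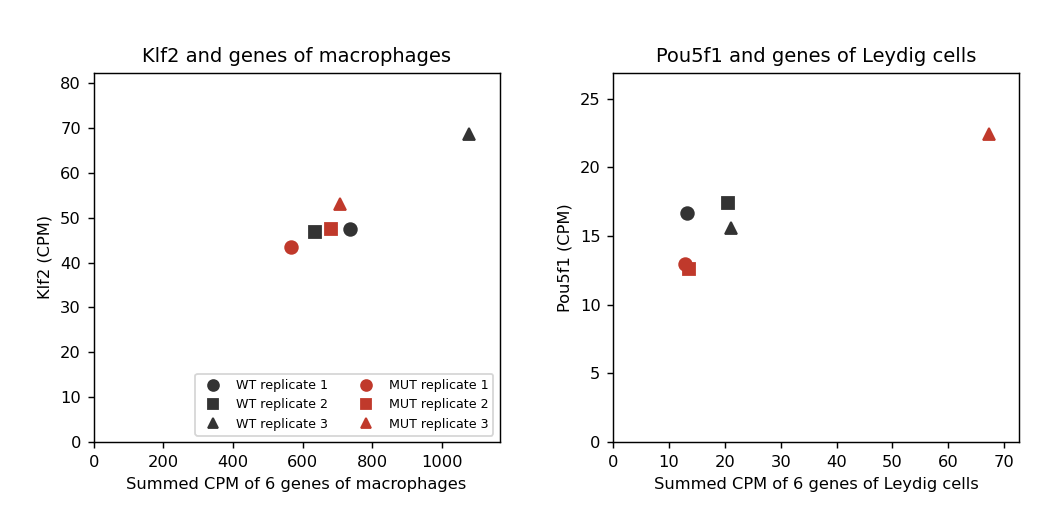
Left, CPM of *Klf2* against the summed CPM of 6 macrophage genes. Right, CPM of *Pou5f1* against the summed CPM of 6 Leydig cell genes. Each point is 1 library (black WT, red MUT, shapes for replicates), and WT replicate 3 lies apart at 1079 and 68.6 CPM on the left, MUT replicate 3 at 67.3 and 22.4 CPM on the right.

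Across the 9 members that passed the expression filter, no adjusted p fell below 0.1 in edgeR, beside 2 of all 19656 genes (0.0102%), both lower in MUT. At an unadjusted p under 0.05 there was 1 member, *Esrrb*, against 2.78% of all genes. DESeq2 had 0 members at an adjusted p under 0.1 (0.0241% of genes) and 0 at an unadjusted p under 0.05 (1.18%). With the replicate number as a block, 13 genes (0.0661%) were called in edgeR and again no member. The log2 fold change was positive for 3 members and negative for 6, with a median of -0.046 beside 0.0066 over all genes tested. The intervals show what size of change these libraries leave room for. For 8 of the 9 members the whole 95% confidence interval lay within 1 log2 unit of 0, that is within a 2-fold change, as it did for 81.6% of all genes tested. The exception was *Sox2*, whose lower bound of 0.475-fold reached beyond it. For *Klf4*, *Zfp42* and *Dppa4* the intervals were narrower still, from 0.802-fold to 1.17-fold at the widest.

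**Figure D4:**
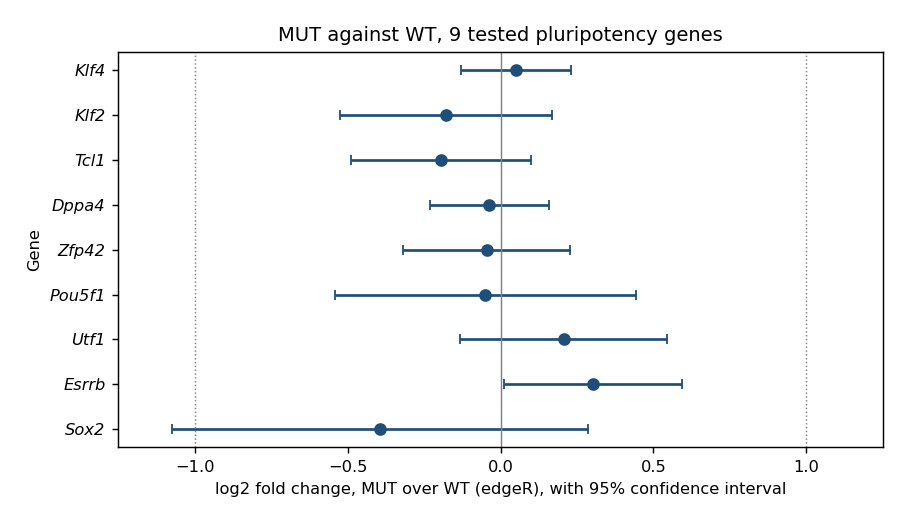
Log2 fold change of MUT over WT for the 9 tested genes (points, edgeR) with 95% confidence intervals (bars), and dotted lines at -1 and 1. The interval of *Esrrb*, from 0.012 to 0.59, is the 1 that leaves out 0, and that of *Sox2* is the 1 that crosses a dotted line, at -1.07.

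A wider list of 27 genes of the pluripotency network was examined in the same fit. Of these 23 were tested, and none was called in either direction by edgeR or DESeq2. The highest were *Trim28*, a co-repressor that silences retroelements (542 TPM), *Lin28a*, an RNA-binding protein that blocks maturation of let-7 microRNAs (350 TPM), and *Sall4*, a zinc finger partner of OCT4 (229 TPM). *Lin28a* had the smallest p of the list. It was at 340 CPM in WT and 407 CPM in MUT with no overlap between the groups, a log2 fold change of 0.26 (standard error 0.077, unadjusted p = 0.00861 and adjusted p = 0.998 from edgeR). The other gene of the list with an unadjusted p under 0.05 in edgeR, as for 2.78% of all genes tested, was *Tdh*. It encodes the mitochondrial threonine dehydrogenase of mouse embryonic stem cells and had a log2 fold change of 0.49 at 6.58 TPM. DESeq2 had 3 genes of the list at an unadjusted p under 0.05, beside 1.18% of all genes. Every MUT library lay above every WT library for 3 genes of the list, as for 4.69% of all genes tested. The list had 17 positive and 6 negative changes with a median of 0.073, beside 51.8% positive among all genes tested. *Fgf4*, *Tdgf1*, *Nodal* and *Gdf3*, signalling genes of the early embryo, were at 0.152 to 0.582 TPM and did not pass the filter.

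The lists of cell type markers gave 0 calls in edgeR and DESeq2 without a block, and their unadjusted p-values below are from edgeR. The undifferentiated list, led by *Ddx4*, *Zbtb16* and *Ret*, had a median log2 fold change of -0.076 over 12 genes, with the smallest p for *Nanos3* (0.106, unadjusted). The list of differentiating spermatogonia, led by *Sohlh1*, *Stra8* and *Sohlh2*, had a median of 0.18 with 6 of 6 genes positive and the smallest p for *Stra8* (0.0361). The meiotic list, led by *Tex101*, *Sycp3* and *Sycp1*, had a median of -0.018, with the smallest p for *Spo11* (0.311). The spermatid list, led by *Prm2*, *Prm1* and *Tnp2*, had a median of -0.55 and the smallest p for *Prm1* (0.0458). With the replicate number as a block 1 of its 6 genes was called in edgeR (*Tnp1*, adjusted p = 0.0794). DESeq2 with this block called 3, namely *Tnp1* (0.000259), *Prm1* (0.00126) and *Tnp2* (0.00143), all lower in MUT. Over the whole table the block gave 13 genes in edgeR and 55 in DESeq2. These calls rest on a pairing that the labels do not state. For Sertoli cells (*Clu*, *Inha* and *Rhox5* highest) the median was 0.063 and the smallest p was 0.0428 for *Wt1*. For Leydig cells (*Cyp17a1*, *Star* and *Insl3*) the median was 0.98 and the smallest p 0.177 for *Cyp17a1*. For peritubular myoid cells (*Acta2*, *Des* and *Tagln*) the median was 0.19 and the smallest p 0.149 for *Myh11*. For macrophages (*Lyz2*, *C1qa* and *Csf1r*) the median was -0.30 and the smallest p 0.0714 for *Csf1r*, and for endothelial cells (*Cdh5*, *Tek* and *Kdr*) -0.047 and 0.171 for *Kdr*. The Leydig cell value rests on MUT replicate 3, where all 6 genes had their highest level.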

How the data were processed

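Fragments were counted for 3 WT and 3 MUT samples, grouped by their labels. The authors deposited raw counts per gene name from featureCounts 1.6.2, run on GENCODE vM17 with tdTomato added, without strand and without multi-mapping or ambiguous fragments. The submitters' processing notes also name STAR and GRCm38.p6. No replicates were pooled, and the libraries came from a stranded kit.

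The 6 columns were joined by name. In R 4.3.3, edgeR 4.0.16 normalized counts by TMM, filterByExpr kept 19656 genes, and its quasi-likelihood test compared MUT with WT with genotype as the only term, with Benjamini-Hochberg adjustment over all genes at an FDR of 0.1. Standard errors came from the F statistic. TPM used the deposited exon lengths. Single values were also compared by exact two-sided permutation. DESeq2 1.42.0, other scalings and filters, an FDR of 0.05, a replicate block and leaving out each library were alternatives. The pairing of numbers was checked in the data: deviations from group means over 10583 genes above 10 CPM correlated at 0.31, 0.17 and 0.39 in same-numbered pairs, while WT replicate 2 with MUT replicate 1 gave 0.32. The labels do not say what the numbers share. That samples are separate mice is from the study's methods. Replicates differed by more than sampling noise, with a chi-square per degree of freedom of at least 4.67.

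The members and lists were chosen with earlier results of these data known. All members were named in each comparison. Of other lists, the 3 genes highest in TPM, the gene with the smallest p and any gene called were named, and *Tdh*, *Tcl1b2* and the 4 network genes below the filter were added after their values were seen. Promoter windows are RefSeq's on the same build. In a search of GENCODE vM21 transcripts, 15% of the 50-base windows of *Pou5f1* and 4.48% of those of *Dppa4* occurred in another gene, and none for the other members. The fits were tested on simulated data. The confidence intervals of log2 fold changes hold the spread between libraries, while the exact interval for *Nanog* and the floors cover counting error only.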

Additional observations from a re-analysis of the deposited data

How the results depend on the processing

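No member was called under any of the 15 alternatives, including an FDR of 0.05, and the median log2 fold change over the members moved by less than the spread between replicates. It ran from -0.094 to 0.026 when a library was left out. The number of genes called over the whole table, 2 in edgeR, was 9 in DESeq2 with its defaults and 17 with Cook's distances switched off, 5 without a filter on low counts, 1 at an FDR of 0.05 and 0 when 10 counts were required of each library (479 genes then at an unadjusted p under 0.05). With the replicate number as a block it was 13 in edgeR and 55 in DESeq2, and the block changed no call of a member. Leaving out 1 library gave 0 to 6 genes. There were 0 without MUT replicate 2 (292 at an unadjusted p under 0.05 in edgeR) and 1 without MUT replicate 1. There were 5 without WT replicate 3 and 6 without MUT replicate 3 (1736 at an unadjusted p under 0.05 in edgeR). On the log2 scale, the direction turned for *Pou5f1* without MUT replicate 1 or 2 (range -0.37 to 0.085), for *Klf4* without WT replicate 2 (-0.023 to 0.11), for *Klf2* and *Zfp42* without WT replicate 3 (-0.29 to 0.026 and -0.10 to 0.032) and for *Dppa4* without MUT replicate 2 (-0.097 to 0.0068), while *Esrrb*, *Utf1*, *Sox2* and *Tcl1* kept theirs under all 14 alternatives fitted. Ordered by CPM without the division by length, 6 of the 10 members kept their rank, and *Pou5f1* changed places with *Zfp42* and *Esrrb* with *Utf1*. The cause of the changes in the number of calls and in direction was not tested. For *Nanog* the counts were too few to give a direction.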

Other observations

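Some relatives of the members were transcribed at higher levels than the members themselves. Of 20 genes from the same families, 18 were counted, 13 were tested and 0 were called in edgeR or DESeq2, with 0 at an unadjusted p under 0.05 in either tool. *Sox3*, the close relative of *Sox2* that acts in spermatogonia, was the highest of them at 217 TPM, while *Sox2* itself was at 1.77 TPM. *Yy1*, the ubiquitous zinc finger relative of *Zfp42*, was at 44.6 TPM, and *Pou3f1*, a POU factor known in cultured germline stem cells, was at 37.0 TPM. *Pou5f1* was at 27.1 TPM, but this value rests on 2248 exon bases, while its longest GENCODE vM21 transcript has 1362. The order of *Pou3f1* and *Pou5f1* per transcript was not tested. The smallest p of the list belonged to *Sox15*, at 1.33 CPM in WT and 1.74 CPM in MUT (log2 fold change 0.39, unadjusted p = 0.126 and adjusted p = 0.998 from edgeR). The log2 fold changes were positive for 11 of the 13 tested, with a median of 0.10, beside 51.8% positive and a median of 0.0066 over all genes tested.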
